A study of Mus musculus with 6 samples.

Results

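The genes described here are the transcription factors that set tissue identity in the embryo, apart from the Hox genes: the Pax, Sox, Gata, Msx, Sall, Dlx, Lhx, Tbx, Gfi1, Nr2f and Nkx families, and the sine oculis homeobox genes, such as Six2, Six4 and Six5. They were matched by gene symbol with no measured value in the rule, but the families were chosen with earlier results of these data known. Of the 23791 named entries of the count table, 66 matched. Each of the 66 has a gene of the same symbol in the GENCODE M21 annotation of the mouse genome GRCm38.

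Factors of these families bind DNA through a paired domain, an HMG box, zinc fingers, a homeodomain, a T-box or a nuclear receptor fold, and each lineage is marked by a combination of them rather than by 1 factor. In the adult most are silent outside the tissues they help to form. Basal and progenitor cells of prostate epithelium are known for Sox2 and Sox9. Pax3 marks neural crest and muscle precursors, Pax5 marks B lymphocytes, and Gfi1 marks blood progenitors and inner ear hair cells. Gata2 and Gata3 act in blood, T lymphocytes and several epithelia.

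RNA was sequenced in 6 libraries of RM1, a prostate cancer line of C57BL/6 mice. Unlabelled RM1 and RM1536 were each sequenced from culture in 2 libraries, a and b, and RM1536 was also sequenced after recovery from a femur (here called bone) and from a lung, with 1 library per site. RM1536 is RM1 that carries eCFP, a fluorescent protein, and luc2, a luciferase, and it was made by pooling clones 5, 3 and 6, so it descends from a few cells of the parental line. The bone and lung cells came from the same mouse 16 days after injection into the heart. They were sorted and grown in culture again before RNA was taken, so no library is of RNA taken directly from a tumour.

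Libraries held 22763835 to 30303566 counts. Levels are given as CPM, counts per 1e6 counts of the library, after scaling by edgeR's TMM factors, and 3 counts, taken as the most that a count of 0 allows, equalled 0.0971 to 0.132 CPM. Intervals and limits of this kind cover counting error only. A fold printed beside a log2 fold change is the ratio of the reads pooled over each group, scaled by library size, and not a ratio of mean CPM. A gene was called changed where the Benjamini-Hochberg adjusted p of edgeR's quasi-likelihood test over 13832 genes was at most 0.05. The spread in that test was estimated from both culture pairs, and bone and lung were assumed to vary like them. Whether a and b were separate cultures is not stated in the labels, so p values measure only the spread between these libraries, which may be technical. Bone and lung are unreplicated, and their p values leave out variation among animals.

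The label of the cells was checked against prostate epithelium markers. Keratins Krt8 (966 to 2370 CPM) and Krt18 (275 to 458 CPM) and the hormone-responsive gene Fkbp5 (72.4 to 142 CPM) were present in all 6 libraries. Hoxb13, a homeobox factor of prostate epithelium, had 0 reads in all 6, so it was not detectable at this depth.

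Of the 66 factors, 29 reached 5 CPM in at least 1 library, 8 more passed edgeR's filter on low counts without reaching that level, 18 had reads but did not pass, and 11 had 0 reads in every library. The smallest group has 1 library, so enough reads in 1 library let a gene pass the filter. A factor can thus be tested only because of the library in which it is high. Reads in at least 1 library were found for 55 factors and in all 6 libraries for 28. Among those at 0 were Gfi1b, Nkx1-1, Nkx2-3, Nkx6-2, Pax1, Sall4, Sox1, Sox8, Sox18 and Tbx20. The 18 that had reads without passing were Dlx3, Dlx4, Lhx2, Lhx3, Lhx8, Lhx9, Nkx2-5, Nkx3-2, Nkx6-1, Sall3, Sox6, Sox10, Sox11, Sox15, Sox30, Tbx2, Tbx4 and Tbx21. Their highest level in any library was 0.355 CPM, for Tbx2 in lung, and their highest total was 29 reads over the 6 libraries, for Sox15.

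Families differed in how many members were detected. All 4 Gata and all 3 Nr2f factors of the table were expressed at 5 CPM or more somewhere, as were 3 of 5 Pax factors and 2 of 3 Msx factors. Only 5 of 16 Sox factors, 3 of 9 Tbx factors, 2 of 4 Dlx factors and 1 of 5 Lhx factors reached that level. None of the 7 Nkx factors passed the filter. The number of factors at 5 CPM or more was 25 and 24 in the RM1 libraries, 22 and 21 in the RM1536 libraries, 21 in bone and 22 in lung. At 1 CPM or more the lung library had the most, with 30, against 24 in bone, 26 and 25 in RM1536 and 28 in each RM1 library.

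**Figure D1:**
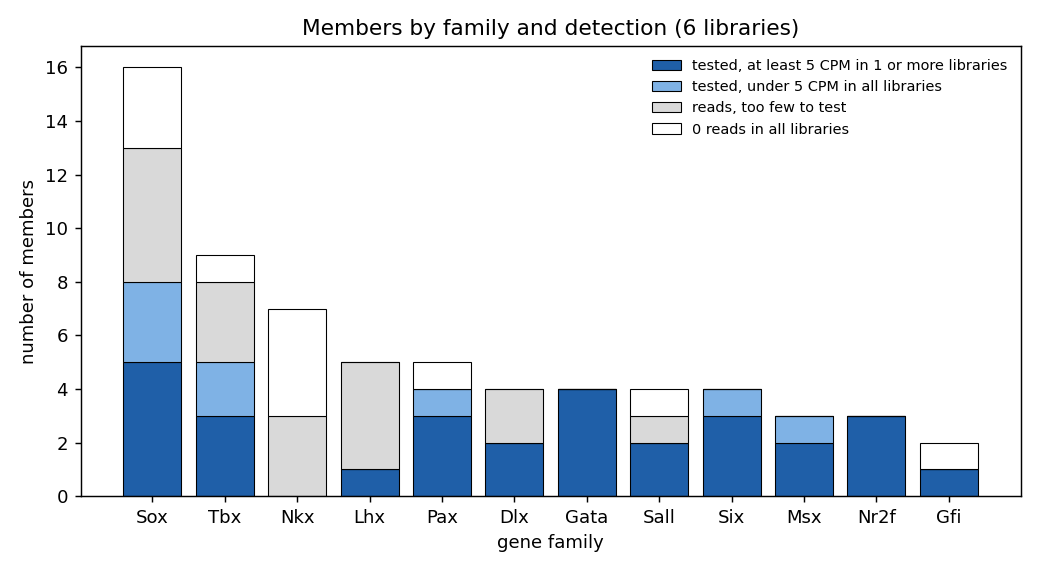
Number of factors in each gene family (bars, vertical axis) by how they were detected over the 6 libraries: at 5 CPM or more in at least 1 library, tested but below that, with reads but not tested, or at 0 reads. The Nkx bar has no tested part, while all 4 Gata and all 3 Nr2f factors were expressed.

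Per kilobase of exon, factors with a high mean level over the 6 libraries were Sox9 (35.6 CPM per kb), Sox2 (26.6), Sox4 (16.9), Sox12 (10.4), Gata2 (9.04), Nr2f6 (8.73), Nr2f2 (7.94), Tbx3 (6.07) and Nr2f1 (5.79). The first 4 are all Sox factors: Sox2 belongs to the B1 subgroup known from pluripotent and progenitor cells, Sox9 to the E subgroup of cartilage, neural crest and epithelial progenitors, and Sox4 and Sox12 to the C subgroup. Gata2 is a zinc finger factor of blood and endothelial precursors. Nr2f1, Nr2f2 and Nr2f6 are orphan nuclear receptors, and Tbx3 is a T-box repressor of limb and mammary development.

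Several factors varied by 2-fold or less over the 6 libraries. Tbx15, a T-box factor of skeletal and skin patterning, stood at 17.8 and 17.4 CPM in the RM1 pair, 16.3 and 16.1 CPM in the RM1536 pair, 14.4 CPM in bone and 12.4 CPM in lung, a highest value 1.43 times the lowest. The same ratio was 1.63 for Six5, 1.66 for Nr2f6, 1.77 for Nr2f2, 1.95 for Dlx2, 1.97 for Sox4, 1.99 for Tbx3 and 2.00 for Tbx18. At the other end it was 56.1 for Sox5, 24.7 for Msx2 and 9.32 for Gata3, and it could not be formed for those factors at or near 0 reads in a library. In CPM, Six5 ran from 9.24 to 15.1, Nr2f6 from 21.2 to 35.1, Nr2f2 from 50.1 to 88.6, Tbx3 from 29.4 to 58.5, Sox12 from 28.3 to 60.8 and Six4 from 23.4 to 50.3 over the 6 libraries. Pax6, the eye and forebrain factor, stayed low, from 0.0334 CPM in RM1 a to 1.11 CPM in lung, and so did Tbx6, a factor of presomitic mesoderm, from 0 reads in RM1 a to 1.26 CPM in lung. The neighbours Dlx1 and Dlx2, homeobox genes 9.43 kb apart, ran at 4.53 to 11.6 CPM and 9.54 to 18.6 CPM, both highest in bone.

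**Figure D2:**
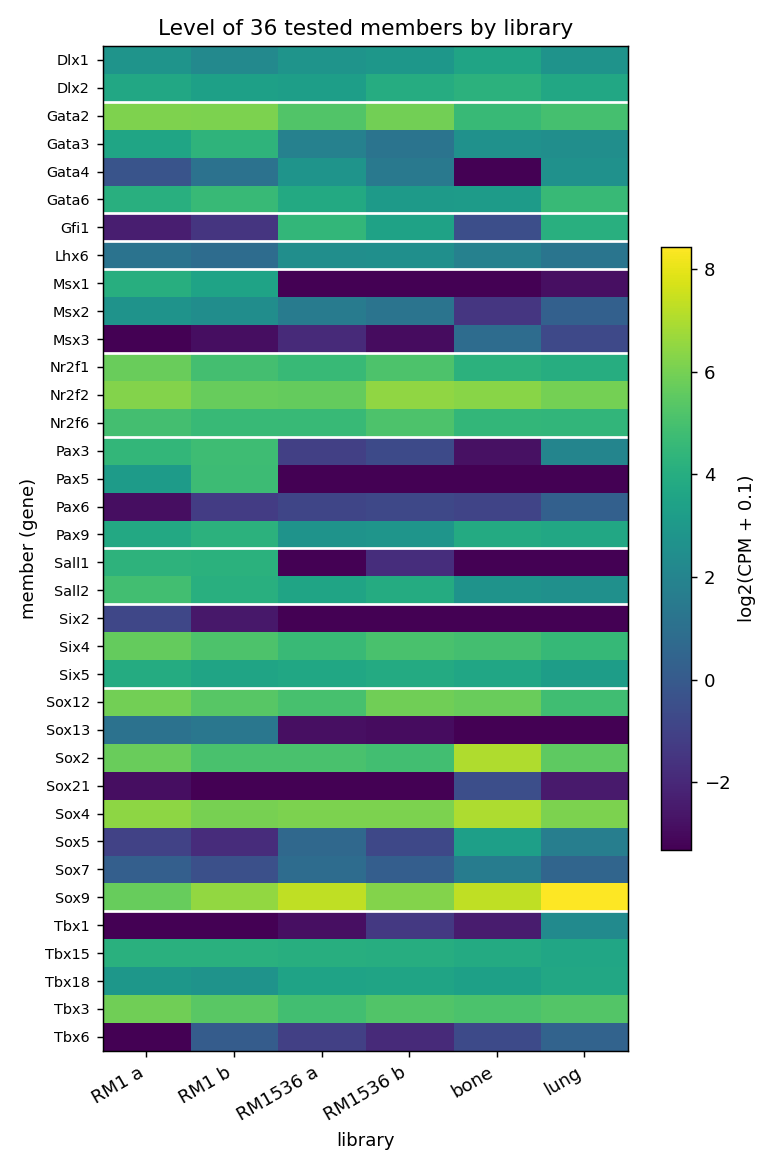
Level of 36 tested factors (rows, grouped by family) in the 6 libraries (columns), coloured by log2 of CPM plus a small constant. The Tbx15, Six5 and Nr2f6 rows keep nearly 1 shade across the columns, while Gfi1, Pax3, Pax5, Msx1, Sall1 and Sox13 change between the RM1 and RM1536 columns.

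Between the labelled clone pool and the parental line in culture, 6 factors fell and 1 rose. Pax3, Pax5, Msx1, Sall1, Sox13 and Gata3 were lower in RM1536 than in RM1, and Gfi1 was higher. In 5 of the 6 that fell, RM1536 retained at most 0.518 CPM. Of the 37 tested factors 7 (18.9%) were called, beside 5.64% of all genes tested (2.1% higher and 3.54% lower). At an unadjusted p under 0.05 the count was 16 of 37 (43.2%), beside 23% of all genes. The 16 include Six2, with most of its reads in RM1 a, and Tbx1, with most of its reads in lung. Calls fell in 6 families, with 2 in Pax and 1 each in Gata, Gfi, Msx, Sall and Sox. In these bulk libraries, fewer cells that express a gene and less RNA per cell cannot be told apart.

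Pax3, a paired domain factor of neural crest and muscle precursors (chr1:78101267-78197134, minus strand), measured 22 and 27.7 CPM in RM1 a and b. It fell to 0.362 and 0.518 CPM in the RM1536 pair, and stood at 0.0439 CPM (1 read) in bone and 4.03 CPM (102 reads) in lung. Both RM1 libraries lay far above all others, and lung lay between the RM1 pair and the remaining libraries. The log2 fold change in RM1536 was -5.79 ± 0.38 (SE), 55.2-fold lower in pooled reads (adjusted p = 0.00576). Among markers of cells in which Pax3 acts, Mitf, the melanocyte regulator it is known to activate, was at 21.3 to 54.5 CPM without a called difference (log2 fold change -0.09 ± 0.48, adjusted p = 0.94). The melanocyte enzyme gene Dct had 1 read in all, and Pmel was at most 0.518 CPM.

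Pax5, the B lymphocyte factor (chr4:44524757-44710487, minus strand), had 8.79 and 26.7 CPM (263 and 753 reads) in RM1 a and b and 0 reads in RM1536 a, RM1536 b, bone and lung. The RM1 pair differed by 3.04-fold, the widest gap within that pair among the 25 factors at 5 CPM or more in it, and both libraries lay far above the limit that 0 reads allows elsewhere. The RM1536 level was at least 325-fold lower than that of RM1, taking 3 reads over the RM1536 pair (adjusted p = 0.0164). That call was lost when RM1536 b was left out (adjusted p = 0.0554) and with DESeq2 (0.117), within a range of 2.14e-44 to 0.117 over the alternatives. Other B lymphocyte genes did not accompany it: Cd79a, Cd79b, Cd22 and Blk were at most 0.291 CPM in any library. Ebf1, a B lineage factor that is also known in mesenchymal cells, went the other way, at 0.401 and 0.779 CPM in RM1 and 4.06 and 8.19 CPM in RM1536 (log2 fold change 3.37 ± 0.57, adjusted p = 0.0304). The Ebf1 call was lost without RM1 a (adjusted p = 0.0795) and without RM1536 b (0.101, log2 fold change 2.76), in a range of 7.82e-10 to 0.101.

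The promoters of called factors show whether their starts share simple elements. The 250 bases before the most upstream RefSeq start (GRCm38.p6) are shown for 3 of the factors that fell to 0 or nearly 0 reads, and for the 1 that rose. The Gfi1 window lies largely inside the longer GENCODE gene model. Each runs 5′ to 3′ on the gene's strand. Capitals mark CCAAT, the element bound by NF-Y, and GGGCGG, the core of the Sp1 site, each searched on both strands, so ATTGG and CCGCCC are capitalised too.
Pax5 (chr4:44710695-44710944, minus strand): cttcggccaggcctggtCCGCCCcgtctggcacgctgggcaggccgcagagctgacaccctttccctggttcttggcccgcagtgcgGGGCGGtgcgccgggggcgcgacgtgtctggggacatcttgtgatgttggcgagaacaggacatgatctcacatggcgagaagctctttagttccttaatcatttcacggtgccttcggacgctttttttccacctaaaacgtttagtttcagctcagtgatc
Msx1 (chr5:37824586-37824835, minus strand): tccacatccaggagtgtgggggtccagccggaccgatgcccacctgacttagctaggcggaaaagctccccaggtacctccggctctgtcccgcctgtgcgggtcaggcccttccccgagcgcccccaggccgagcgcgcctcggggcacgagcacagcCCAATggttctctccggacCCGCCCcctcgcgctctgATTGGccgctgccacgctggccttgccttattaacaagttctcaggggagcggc
Sall1 (chr8:89044163-89044412, minus strand): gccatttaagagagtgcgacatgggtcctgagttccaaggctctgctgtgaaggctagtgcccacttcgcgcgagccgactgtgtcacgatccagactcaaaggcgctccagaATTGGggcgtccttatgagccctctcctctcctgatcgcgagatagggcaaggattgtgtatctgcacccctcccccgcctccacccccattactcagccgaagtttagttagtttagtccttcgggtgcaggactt
Gfi1 (chr5:107725806-107726055, minus strand): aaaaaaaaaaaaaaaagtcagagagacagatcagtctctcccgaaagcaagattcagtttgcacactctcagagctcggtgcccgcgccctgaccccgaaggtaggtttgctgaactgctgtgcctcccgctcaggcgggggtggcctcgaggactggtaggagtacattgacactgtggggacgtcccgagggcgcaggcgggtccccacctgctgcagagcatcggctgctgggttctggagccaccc
Pax5 holds 2 GGGCGG and no CCAAT, Msx1 holds 2 CCAAT and 1 GGGCGG, Sall1 holds 1 CCAAT, and Gfi1 holds neither in this window. Of the factors that fell and are not printed, Sox13 also holds neither, and Gata3 holds 2 GGGCGG and no CCAAT. Pax3 has no promoter entry. The elements thus do not divide the factors that fell from the 1 that rose. Of all 27025 RefSeq promoters of this length, 34.5% hold CCAAT and 33.0% hold GGGCGG. A match or its absence describes these letters only.

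Msx1 is a homeobox repressor of craniofacial, limb and tooth mesenchyme (chr5:37820485-37824583, minus strand). It had 16.4 and 11.1 CPM (490 and 313 reads) in RM1, 0 reads in both RM1536 libraries and in bone, and 1 read in lung. The level in RM1536 was at least 256-fold lower (adjusted p = 0.0087). Its paralog Msx2 was at 6.51 and 5.31 CPM in RM1 and 2.90 and 2.20 CPM in RM1536, groups that did not overlap, without a call (log2 fold change -1.21 ± 0.37, adjusted p = 0.124). Msx3 had 1 read in the RM1 pair and 5 in the RM1536 pair.

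Sall1, a zinc finger repressor of kidney and limb development that recruits the NuRD complex (chr8:89027235-89044162, minus strand), had 19.5 and 18.4 CPM in RM1. RM1536 a had 0 reads, RM1536 b had 6 reads (0.194 CPM), and bone and lung had 0. The RM1 pair was thus high and even, and the 4 other libraries were at or close to 0. The log2 fold change was -7.43 ± 0.80, 176-fold lower in pooled reads (adjusted p = 0.0124). The size rests on the 6 reads of RM1536 b: the log2 fold change was -6.61 without RM1536 a, and without RM1536 b the RM1536 level is 0 reads. DESeq2 gave no call (adjusted p = 0.204, the highest over the alternatives, whose lowest was 1.37e-37). Sall2 was expressed in every library, at 29.1 and 17.2 CPM in RM1 and 11.4 and 15.1 CPM in RM1536 (log2 fold change -0.81 ± 0.34, adjusted p = 0.224). Sall3 had 1 read in all and Sall4 had none.

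Sox13, a D subgroup factor known from gamma delta T lymphocytes and cartilage (chr1:133382303-133424377, minus strand), was low throughout. It had 2.04 and 2.41 CPM in RM1 (61 and 68 reads), 1 read in each RM1536 library, and 0 in bone and lung. The ratio of RM1536 to RM1 was 0.0162, with an exact 95% counting interval of 0.00194 to 0.0596 (log2 fold change -5.78 ± 0.68, adjusted p = 0.0142). The call was lost when RM1536 b was left out (adjusted p = 0.0703, the highest over the alternatives, whose lowest was 3.37e-10). Its subgroup partner Sox5 was at 0.401 and 0.177 CPM in RM1 and 1.45 and 0.486 CPM in RM1536 (log2 fold change 1.70 ± 0.71, adjusted p = 0.223), and the third D subgroup factor, Sox6, had 4 reads in all.

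Gata3, the factor of T lymphocytes, luminal mammary epithelium and trophoblast (chr2:9857078-9890034, minus strand), measured 11.9 and 20.2 CPM in the RM1 pair and 3.50 and 2.17 CPM in the RM1536 pair, with 6.10 CPM in bone and 5.49 CPM in lung. Both RM1 libraries lay above the 4 others, and bone and lung lay above the RM1536 pair. The fall was 5.76-fold (log2 fold change -2.5 ± 0.42, adjusted p = 0.0299). It was the least firm of the 7 calls: it was lost without RM1 b (adjusted p = 0.0612), without RM1536 a (0.0618), without RM1536 b (0.12) and with the replicate letter as a block (0.0822), within a range of 3.03e-09 to 0.12. The other Gata factors were not called. Gata2 was at 70.8 and 68.9 CPM in RM1 and 38.3 and 60.0 CPM in RM1536 (log2 fold change -0.51 ± 0.27, adjusted p = 0.322), and Gata6, a factor of endoderm and heart, at 16.9 and 24.5 CPM and 13.8 and 8.38 CPM (-0.90 ± 0.34, 0.188). Gata4, its partner in the same tissues, was at 0.735 and 2.05 CPM in RM1 and 6.76 and 2.59 CPM in RM1536 (1.74 ± 0.68, 0.2), with a 2.61-fold gap within the RM1536 pair.

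Gfi1 was the 1 factor that rose. It codes for a zinc finger repressor that acts through Lsd1 (Kdm1a) in blood progenitors, neuroendocrine cells and hair cells (chr5:107716657-107726036, minus strand). RM1 a and b had 3 and 7 reads (0.1 and 0.248 CPM), RM1536 a and b had 543 and 336 (21.8 and 10.9 CPM), bone had 14 (0.615 CPM) and lung had 434 (17.1 CPM). Lung lay within the range of the RM1536 pair, and bone lay near the RM1 pair. The level in RM1536 was 91.7 times that in RM1, with a counting interval of 49.6 to 192 (log2 fold change 6.53 ± 0.61, adjusted p = 0.00942). It was 7.28 without RM1 b and 5.91 without RM1536 a. Leukocyte genes did not accompany it: Ptprc and Cd52 were at most 0.132 CPM in any library, and over 5 leukocyte markers the summed level was 6.58 and 8 CPM in RM1 and 2.94 and 1.59 CPM in RM1536.

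An antisense gene, A430072P03Rik, overlaps Gfi1. It had 0 reads in both RM1 libraries, 30 and 27 in the RM1536 pair, 3 in bone and 26 in lung, and so was highest in the libraries in which Gfi1 was highest. The strand setting of the counting is not given in the sources used here, and reads of the 2 genes cannot be told apart. Of the 37 tested factors, 18 overlap another annotated gene, and for 14 of them that gene has an entry of its own. The largest such overlapping count was beside Nr2f1, where A830082K12Rik had 164 to 439 reads.

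**Figure D3:**
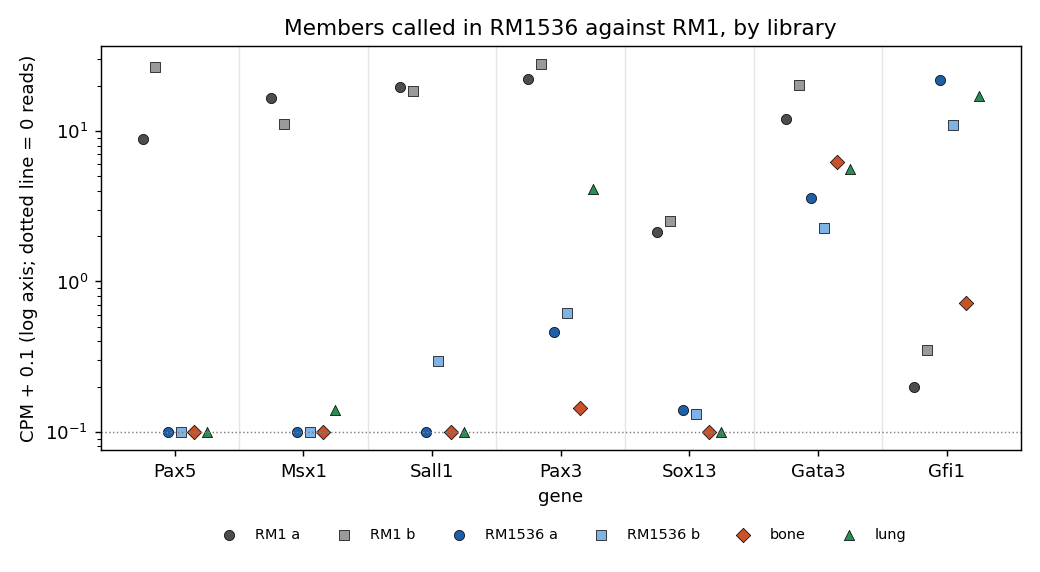
Level of the 7 called factors in each library (1 point per library, CPM plus a constant on a log axis, dotted line at 0 reads). Pax3, Pax5, Msx1, Sall1 and Sox13 lie at the bottom in RM1536 while Gfi1 lies high there and in lung, and Gata3 differs less (20.2 against 2.17 CPM at its extremes).

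Other factors differed between RM1536 and RM1 without passing the threshold. Pax9, a paired domain factor of pharyngeal endoderm and tooth, was at 13.5 and 19.0 CPM in RM1 and 6.44 and 6.83 CPM in RM1536 (log2 fold change -1.29 ± 0.28, adjusted p = 0.0554). Lhx6, a LIM homeobox factor of interneurons and oral mesenchyme, was at 2.1 and 1.70 CPM and 5.47 and 5.73 CPM (1.56 ± 0.35, 0.0617). The groups did not overlap for either of these, and DESeq2 called both, among 8 of 36 factors, beside 10.5% of all genes. Six2, the kidney progenitor factor, had 14 and 2 reads in RM1 and 0 elsewhere, at least 5.11-fold lower in RM1536 (adjusted p = 0.19).

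Other expressed factors were not called between the culture groups. Tbx18 was at 7.42 and 6.55 CPM in RM1 and 11.1 and 11.7 CPM in RM1536, groups that did not overlap (log2 fold change 0.70 ± 0.26, adjusted p = 0.176). Sox9 was at 51.4 and 91.2 CPM and 160 and 76.9 CPM, with overlapping groups (0.73 ± 0.43, 0.369). Sox2 was at 54.2 and 33.4 CPM and 33.6 and 29.6 CPM (-0.47 ± 0.28, 0.378), and Nr2f1 at 53.0 and 30.4 CPM and 23.8 and 35.0 CPM (-0.50 ± 0.34, 0.444). Among factors at 5 CPM or more in the pair, the duplicates differed by 2-fold or more for 1 of 25 in RM1 (Pax5) and for 3 of 22 in RM1536 (Gata4, Gfi1 and Sox9), beside 5.36% and 5.92% of all genes at that level.

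Genes around the called factors were read to see whether whole stretches of chromosome moved. The 2 nearest tested genes on each side of the 7 factors, a rule chosen after the factors' values were seen, gave 28 neighbours. Their log2 fold changes ran from -3.6 to 0.92. Distances ran from 18.8 kb (Evi5, from Gfi1) to 3410 kb (Usp6nl, from Gata3). Slc4a3 lay 2540 kb from Pax3 and Rbl2 2030 kb from Sall1. Genes this far off do not show whether a nearer stretch moved. Plekha6, 78.9 kb from Sox13, was the 1 neighbour called, at 1.30 and 1.91 CPM in RM1 and 0.201 and 0.0647 CPM in RM1536 (log2 fold change -3.60 ± 0.72, adjusted p = 0.0473). That call was lost when a culture library was left out, RM1 a, RM1 b, RM1536 a or RM1536 b in turn (adjusted p = 0.0695, 0.123, 0.0833 and 0.178) and with the replicate block (0.0878), with a log2 fold change of -4.57 without RM1536 a and -2.99 without RM1536 b. Epha4, an ephrin receptor gene 586 kb from Pax3, was just outside the threshold at 6.45 and 3.86 CPM in RM1 and 0.925 and 1.26 CPM in RM1536 (-2.23 ± 0.46, 0.0507). No neighbour of Gfi1, Pax5, Msx1, Sall1 or Gata3 was called.

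**Figure D4:**
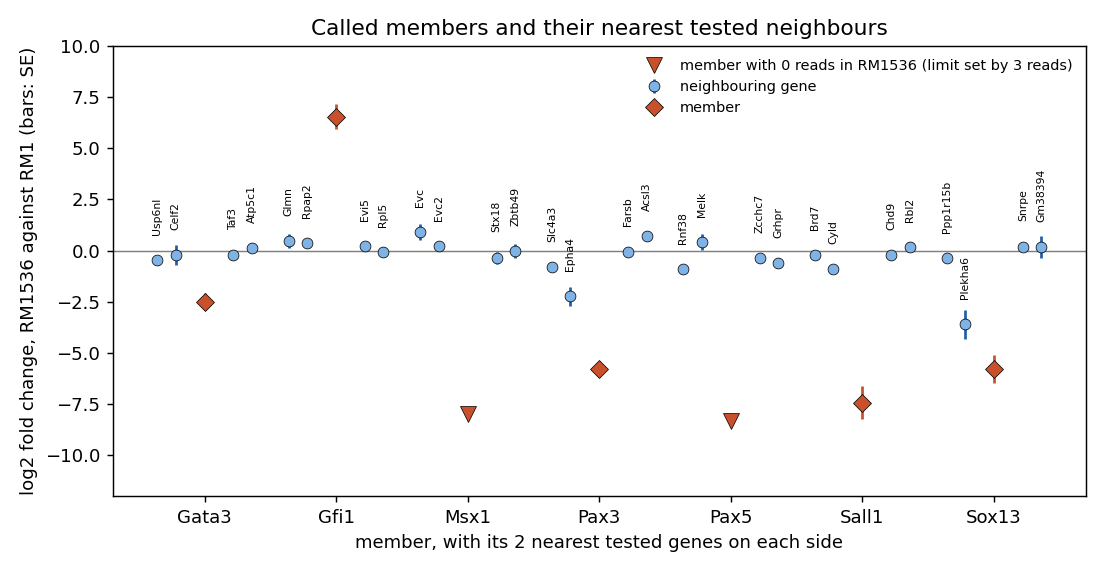
Log2 fold change of RM1536 against RM1 (vertical axis, bars are SE) for the 7 called factors (diamonds, or triangles where RM1536 had 0 reads and the point is the limit set by 3 reads) and their 28 nearest tested genes (circles). Circles stay near 0 apart from Epha4 (-2.23) and Plekha6 (-3.60).

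Partner proteins of these factors were read from gene lists. Factors such as Six2 and Six4 act with Eya coactivators. Of 6 tested Eya and Dach genes 1 was called, beside 5.64% of all genes tested. It was Eya1, at 0.367 and 0.389 CPM in RM1 and 2.33 and 3.59 CPM in RM1536 (log2 fold change 2.96 ± 0.43, adjusted p = 0.022). The call was lost without RM1 a (adjusted p = 0.0715), RM1 b (0.0539) or RM1536 b (0.0737) and with the replicate block (0.0729). Eya2 measured 23 and 19.8 CPM in RM1 and 6.72 and 2.43 CPM in RM1536 without a call (-2.23 ± 0.50, 0.0624). Eya3 was the most even of the family, at 58.1 to 73.3 CPM in all 6 libraries. The median log2 fold change of the list was -0.27, beside 0.02 over all genes tested.

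The Gata cofactor Zfpm1 (Fog1) fell, at 39.5 and 32.1 CPM in RM1 and 6.24 and 9.74 CPM in RM1536 (log2 fold change -2.16 ± 0.30, adjusted p = 0.02), a call lost without RM1536 a (adjusted p = 0.0542) and with the replicate block (0.0516). Zfpm2 (Fog2), the other tested gene of that list, was at 1.87 and 1.52 CPM and 4.43 and 7.06 CPM without a call (1.76 ± 0.40, 0.0657). Of 13 tested Polycomb subunit genes, whose complexes silence lineage factors, only Jarid2 was called, at 45.6 and 43.9 CPM in RM1 and 16.8 and 16 CPM in RM1536 (-1.45 ± 0.21, 0.0212). This share, 1 of 13, is near the 5.64% of all genes tested that were called. Leaving out RM1 a, RM1 b, RM1536 a or RM1536 b ended the Jarid2 call (adjusted p = 0.0658, 0.0549, 0.0661 and 0.091), as did the replicate block (0.0691). The catalytic subunit Ezh2 was at 55 and 45.6 CPM and 58.3 and 72.1 CPM (0.38 ± 0.22, 0.376).

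No gene was called among 6 Groucho corepressors, 13 corepressor subunits of Sall and Gfi1 factors, 9 TALE homeobox cofactors, 13 tested neural crest and mesenchyme factors or 3 tested LIM partners. Their median log2 fold changes were 0.26, -0.09, 0.11, 0.02 and 0.02. Among markers of other cell types, 2 were lower in RM1536: Laptm5, of leukocytes, at 1.54 and 1.91 CPM in RM1 and 0.241 and 0.129 CPM in RM1536 (log2 fold change -3.21 ± 0.56, adjusted p = 0.0343), and Dmp1, of osteocytes, at 24.2 and 5.98 CPM and 0.322 and 0.421 CPM (-5.32 ± 0.81, 0.0242). No tested erythroid, melanocyte, Schwann cell, myogenic, chondrocyte, lung epithelium or endothelium marker was called. The Laptm5 call was lost without RM1 a, RM1 b, RM1536 a or RM1536 b (adjusted p = 0.062, 0.0792, 0.0775 and 0.144) and with the replicate block (0.0822), and the Dmp1 call without RM1536 a (0.0945) or RM1536 b (0.112) and with limma-voom (0.0657). The Dmp1 log2 fold change was -4.02 without RM1 a and -6.0 without RM1 b. The part of these markers in the differences of the factors was not tested.

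Next, cells recovered from bone were set against the RM1536 they came from. These comparisons share the RM1536 libraries with the previous one, so the values are given side by side and not as independent evidence. None of the 37 factors was called by edgeR in bone against RM1536, beside 0.0145% of all genes. At an unadjusted p under 0.05 the count was 11 of 37 (29.7%), beside 9.92% of all genes. The 11 include Sox21 and Msx3, which had most of their reads in bone and passed the filter through recovered libraries. Their place in this count is therefore not independent of their height in bone. DESeq2 called 5 of 37 (Gata4, Gfi1, Msx2, Sox2 and Sox5), beside 2.56% of all genes. Leaving out RM1 b gave 3 calls of 36 in edgeR (Gata4, Gfi1 and Sox2), beside 0.936%.

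Sox2 stood at 133 CPM in bone, above 33.6 and 29.6 CPM in RM1536, 45.1 CPM in lung and 54.2 and 33.4 CPM in RM1. Bone lay above all 5 other libraries, and the level was 4.23 times that of RM1536 (log2 fold change 2.07 ± 0.33, adjusted p = 0.104). Sox4 was also highest in bone, at 126 CPM in bone and 64.3 to 87.8 CPM elsewhere (0.87 ± 0.27, 0.351). Sox5 was at 9.93 CPM in bone, 3.12 CPM in lung and at most 1.45 CPM in the culture libraries (3.37 ± 0.71, 0.178), and the log2 fold change was 4.35 without RM1536 a and 2.77 without RM1536 b. Sox21, a B2 subgroup factor that counteracts Sox2 in neural progenitors, had 14 reads in bone, 2 in lung and 1 in the 4 culture libraries together. It was at least 11.4-fold higher in bone than in RM1536 (adjusted p = 0.28). Sox7, an F subgroup factor of endothelium and primitive endoderm, was also highest in bone, at 2.99 CPM against 0.637 to 1.69 CPM elsewhere.

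Gfi1, Gata4 and Msx2 were low in bone. Gfi1 in bone was 25.6-fold below the pooled RM1536 reads (log2 fold change -4.72 ± 0.74, adjusted p = 0.0998), and -4.13 on the log2 scale without RM1536 a. Gata4 had 0 reads in bone, at least 33.8-fold below RM1536 (adjusted p = 0.158). Msx2 had 6 reads in bone (0.264 CPM), against 2.90 and 2.20 CPM in RM1536 (-3.25 ± 0.60, 0.144). Msx3, by contrast, was highest in bone at 1.67 CPM (38 reads), against 5 reads in the RM1536 pair (4.12 ± 0.99, 0.23), with 5.51 without RM1536 a and 3.34 without RM1536 b. Gata2 was lowest in bone, at 23.9 CPM (-1.04 ± 0.34, 0.38). Pax9 was at 14.6 CPM in bone and 13 CPM in lung, both above the RM1536 pair (bone 1.14 ± 0.33, adjusted p = 0.313, and lung 0.97 ± 0.33, 0.325).

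In lung against RM1536, edgeR again called none of the 37 factors, beside 0% of all genes, and 7 (18.9%) had an unadjusted p under 0.05, beside 13.8% of all genes. The 7 include Tbx1, which passed the filter through its reads in lung. DESeq2 called 1 of 35, Pax3, beside 2.8% of all genes, so the share of factors called was near the background. As given above, Pax3 had 102 reads in lung, and this was 8.98 times the pooled RM1536 reads, with a counting interval of 5.75 to 14.5 (log2 fold change 3.17 ± 0.39, adjusted p = 0.252). Tbx1, a T-box factor of pharyngeal and cardiac precursors, had 121 reads (4.78 CPM) in lung, 1 and 9 reads in RM1536, 2 in bone and 0 in RM1. Lung was 26.6 times RM1536, with a counting interval of 14 to 56.9 (4.75 ± 0.93, 0.295). The log2 fold change was 4.04 without RM1536 a and 6.75 without RM1536 b.

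Sox9 was highest in lung, at 346 CPM, against 160 and 76.9 CPM in RM1536, 159 CPM in bone and 51.4 and 91.2 CPM in RM1 (log2 fold change 1.55 ± 0.50, adjusted p = 0.323). The RM1536 pair itself differed by more than 2-fold here. The lung level was 2.2 above RM1536 on the log2 scale without RM1536 a and 1.14 above it without RM1536 b. Gata6 was at 24.5 CPM in lung, above 13.8 and 8.38 CPM in RM1536 and level with RM1 b at 24.5 CPM (1.14 ± 0.40, 0.333). Sall2 was at 5.80 CPM in lung and 6.54 CPM in bone, below all 4 culture libraries (lung -1.19 ± 0.44, 0.341). Lhx6 was at 2.29 CPM in lung, near RM1 and below the RM1536 pair (-1.29 ± 0.44, 0.327).

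Set against each other, bone had fewer reads than lung of Pax3, Gata4, Tbx1 and Gfi1, none of them called by edgeR. Pax3 had 1 read in bone and 102 in lung, a ratio of 0.0109 with a counting interval of 0.000273 to 0.0621 (adjusted p = 0.147). Gata4 had 0 reads in bone and 153 in lung, at least 45.8-fold lower (adjusted p = 0.282). Tbx1 had 2 and 121 reads, a ratio of 0.0184 with a counting interval of 0.0022 to 0.0679 (adjusted p = 0.422). Gfi1 had 14 reads in bone and 434 in lung, 27.9-fold lower in bone (log2 fold change -4.79 ± 0.77, adjusted p = 0.216). None of the 37 was called by edgeR in bone against lung, beside 0.00723% of all genes, and 8 (21.6%) had an unadjusted p under 0.05, beside 8.47%. The 8 again include Tbx1. DESeq2 called 3 of 35 (Gata4, Gfi1 and Pax3), beside 1.57% of all genes. Without RM1 b, edgeR called 1 of 36, Pax3 (adjusted p = 0.0487, in a range of 3.87e-11 to 0.321), beside 0.234% of all genes.

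**Figure D5:**
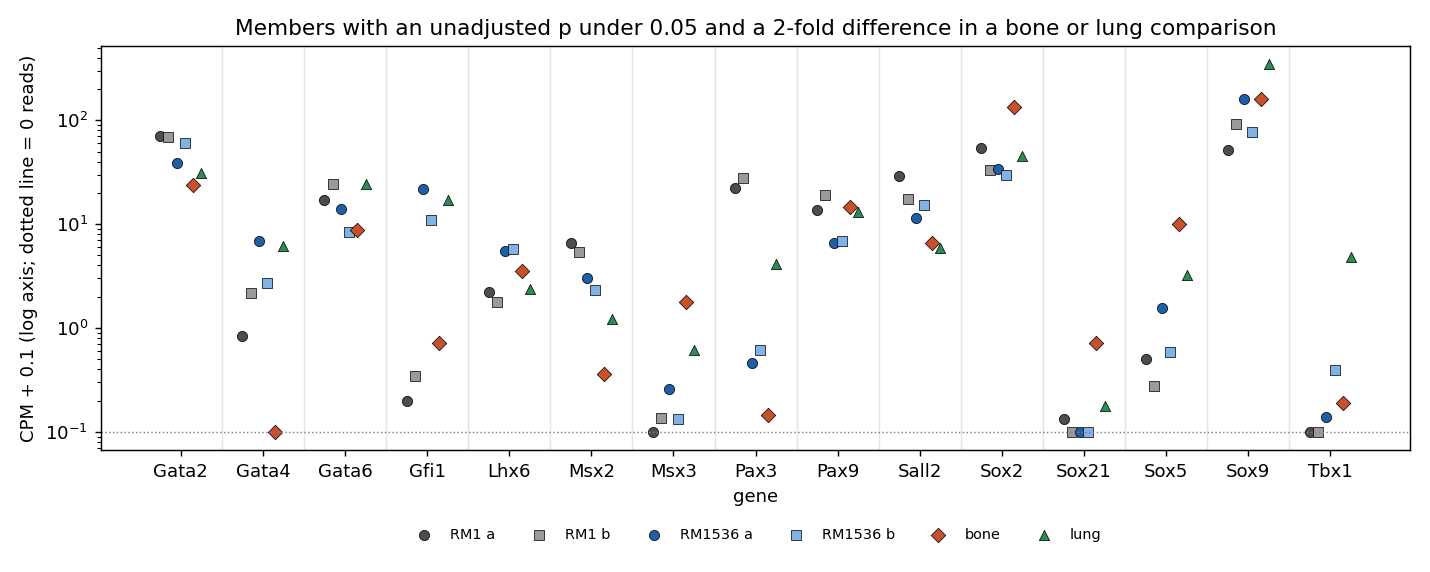
Level of 15 factors in each library (1 point per library, CPM plus a constant on a log axis, dotted line at 0 reads), chosen for their differences between bone, lung and RM1536. Bone is the highest point for Sox2 (133 CPM) and Sox5 (9.93 CPM) and the lowest for Gata4 (0 reads), while lung is highest for Sox9 (346 CPM) and Tbx1 (4.78 CPM).

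Of the factors that fell to 0 or nearly 0 in RM1536, Pax3 had 1 read in bone and 102 in lung. Pax5, Sall1, Msx1 and Sox13 stayed at or near 0 in recovered cells. Over bone and lung together they had 0, 0, 1 and 0 reads. Several markers of the host tissues were low in the recovered libraries. The lung epithelium genes Sftpc, Sftpb and Scgb1a1 were at most 0.0790 CPM in lung. The osteoblast genes Bglap, Ibsp and Alpl were at most 0.395 CPM in bone. With Epcam and Dmp1 added, these lists summed to 0.197 CPM in lung and 1.14 CPM in bone. The endothelial genes Pecam1, Cdh5, Kdr and Tek summed to 1.36 CPM in bone and 1.18 CPM in lung. The 5 leukocyte markers summed to 4.52 CPM in bone and 4.5 CPM in lung. Their sums were 2.94 and 1.59 CPM in RM1536, and 6.58 and 8 CPM in RM1. Whether host cells added to these sums was not tested.

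A sequence feature that the choice of genes did not use is the make-up of their promoters. RefSeq promoters were available for 50 of the 66 factors. Their median GC content over 250 bases was 61.2%, against 52.0% for all 27025 promoters. The median ratio of observed to expected CpG was 0.69, against 0.379, and 72.0% of the factors had a ratio above 0.6, against 34.5% of all promoters. CCAAT was found in 48.0% (24 of 50) and GGGCGG in 56.0% (28 of 50) of the factors' promoters.

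Promoters of tested factors and of those with too few reads to test are set side by side without a test of the difference. The median GC content was 61.6% for the 29 tested factors with a promoter entry and 60.8% for the 21 that were not tested, and the median CpG ratio was 0.676 and 0.715. A CpG ratio above 0.6 was found in 75.9% and 66.7%, CCAAT in 51.7% and 42.9%, and GGGCGG in 51.7% and 61.9%. Nr2f6, expressed in every library, had a promoter of 82.4% GC with 42 CpG, and Nkx1-1, at 0 reads everywhere, one of 75.2% GC with 30 CpG. Sall2, expressed in every library, had a window of 28.0% GC with 0 CpG. That window precedes the most upstream of 2 RefSeq promoter entries of Sall2, and which start these cells use was not tested.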

How the data were processed

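The authors deposited 1 table of raw counts, with a row per gene and a column for each of 6 libraries. The submitters' processing notes list GRCm38, TopHat2, HTSeq and edgeR but not what each did. Neither strand setting nor annotation release is given in the sources used here. A row with no gene name, 0.00626% to 0.0083% of each library, stayed out of library sizes and tests.

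Counts were fitted with edgeR 4.0.16 in R 4.3.3 (filterByExpr, TMM scaling, quasi-likelihood test, 6 libraries, 4 groups), and p values were adjusted over 13832 genes by the Benjamini-Hochberg method. There were 2 residual degrees of freedom, and the biological coefficient of variation was 0.269. The script was tested on simulated data. The RM1 and RM1536 duplicates differed beyond counting error (chi-square per degree of freedom 89.9 and 91.1). Normalization factors were 0.942 to 1.03. Where a group had 0 reads, folds use 3 counts for the whole group, and counting intervals are exact 95% intervals. Alternatives were DESeq2 1.42.0, limma-voom (limma 3.58.1), other size factors and filters, and leaving out each replicate.

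Values were given for each factor that was called, reached 5 CPM in a library, or was at 1 CPM or more in 1 library and 0.2 CPM or less in another. Other factors are given by counts and ranges. Factors and the 20 gene lists (150 genes, 119 with an entry) were chosen with earlier results of these data known. Genes were placed by GENCODE M21, and promoters come from RefSeq. Results for some genes are not reported here.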

Additional observations from a re-analysis of the deposited data

How the results depend on the processing

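Over 54 gene results recomputed 528 times, 0 changed direction. These results were picked for a low p in the main fit. They were refitted on the same libraries or some of them, so a change of direction was unlikely from the start. In RM1536 against RM1 the count of called factors, 7 in the report, was 15 without the filter on low counts and 8 with DESeq2, and it ran from 4 to 7 when a replicate was left out. The lowest count came without RM1536 b and kept Gfi1, Msx1, Pax3 and Sall1. Gfi1, Msx1 and Pax3 were called under all 11 alternatives. The a-minus-b differences of the 2 groups had a correlation of -0.438 over 13832 genes. Genes higher in RM1 a than in RM1 b thus tended to be lower in RM1536 a than in RM1536 b. This shared difference does not show whether the libraries were paired, and its source was not tested. With the replicate block, fitted on the culture libraries alone, the count was 6 of 33, and the calls of Gata3, Eya1, Zfpm1, Jarid2, Laptm5 and Plekha6 were lost. The same fit with no replicate block gave 7. The block fits the same a-minus-b difference in both groups, so it cannot take up differences of opposite sign. It also leaves fewer residual degrees of freedom, and calls over all genes fell with it as well.

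In bone against RM1536, where edgeR called 0, DESeq2 called 5 (beside 2.56% of all genes) and the fit without the filter 8 of 55 (3.89%), and leaving out a replicate gave 0 to 3, the highest without RM1 b. In lung against RM1536 the count of 0 became 1 with DESeq2 (2.8% of all genes) and 5 without the filter (5.88%), and stayed at 0 without any replicate. In bone against lung it became 3 with DESeq2 (1.57%) and 7 without the filter (3.41%), and ran from 0 to 1 when a replicate was left out. The cause of these differences was not tested. Over all genes in RM1536 against RM1, 780 calls became 1466 with DESeq2, 2394 of 22081 without the filter and 196 to 513 without a replicate. On the culture libraries alone there were 295 calls with the replicate block and 836 without it.

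Depth limits factors at few reads: 3 counts are 0.0971 to 0.132 CPM, the most that a count of 0 allows. With 1 library each, bone and lung values carry no spread of their own.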
